A study of Mus musculus with 16 samples.

Results

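The genes described here are 50 developmental transcription factors that lie outside the Hox clusters, taken from 17885 genes named in the 5 region tables of the series. They are 7 Pax, 4 Nkx, 4 Sox, 2 Gata, 6 Tbx, 5 Lhx, 4 Irx, 3 Fox, 5 Dlx and Msx, and 3 En and Emx genes, with Six2, Otx1, Otx2, Hand2, Olig2, Neurog2 and Wt1. The list was written by name. A region counted for a gene when its annotation named that gene, and normalized reads were summed per gene and mark. Normalized reads are the read counts of a library times a constant for that library, and they are not divided by length unless stated.

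Chromatin immunoprecipitation with sequencing (ChIP-seq) of H3K27me3, H3K4me1, H3K4me3, H3K27Ac and H3K9Ac had been done in ER-Hoxb8 cells of C57BL/6 origin. These are mouse granulocyte-monocyte progenitors kept immature by an estrogen-regulated Hoxb8, so all lines carry that transgene. The 3 lines were stably transduced with lentivirus and sorted for GFP: an empty vector, human wild-type ERG (WT-ERG), and human ERG carrying the P199L change of proline to leucine (P199L-ERG). The ETS protein ERG helps to maintain blood stem cells. Every mark and line had 1 library and 1 transduced line, so the 15 libraries allow no replicate check and no test was made. The 95% interval beside a ratio was computed from read numbers by the exact binomial method of Clopper and Pearson and covers counting error only. Values of the 3 lines are always given in the order empty vector, WT-ERG, P199L-ERG.

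H3K27me3 is written by Polycomb repressive complex 2 and lies over silent genes of other lineages, often in wide domains around CpG-rich starts. H3K4me3 marks gene starts that are active or ready for transcription, H3K4me1 marks enhancers and the flanks of starts, and H3K27Ac and H3K9Ac go with activity. Starts with both H3K27me3 and H3K4me3 are called bivalent. The factors of this list specify organs such as the kidney (Pax2, Lhx1, Wt1), heart (Nkx2-5, Tbx5, Hand2), gut and lung (Foxa2, Gata6, Nkx2-1) and brain (Emx2, Otx2, Neurog2), and they are textbook Polycomb targets in cells of other lineages.

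The RefSeq promoters of these genes were rich in CpG. RefSeq promoters of build GRCm38.p6, each of 300 bases from 250 before to 50 after the start, were found for 34 of the 50 genes. Their median GC content was 61.3% beside 52.7% over 27025 promoters, and the median ratio of observed to expected CpG was 0.778 beside 0.389. A ratio of at least 0.6 was found in 25 of 34 (73.5%) beside 36.5% of all promoters. The dinucleotide CG, which reads the same on both strands, occurred in all 34 and in 94.2% of all. The ETS core CCGGAA, searched on both strands, occurred in 3 of the 34 (Pax1, Sox2 and En1; 8.82%) and in 15.2% of all; it contains a CG.

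Promoters of 4 of the genes are printed 5′ to 3′ with each CG in capitals, as examples of the states described further on. Pax2 (chr19:44755502-44755801, + strand, 23 CG) had the highest H3K27me3 among genes with both H3K27me3 and H3K4me3 near the start. The printed Pax2 bases lay inside the H3K27me3 domain at chr19:44745976-44763760. The H3K4me3 region, chr19:44755802-44756959, began right after them, so they lie next to H3K4me3 and not in it. Lhx2 (chr2:38339031-38339330, + strand, 34 CG) led those with H3K27me3 and no H3K4me3 centred near the start by annotated distance. The printed Lhx2 bases, however, lay inside an H3K4me3 region at chr2:38338790-38340055. The 18 kb H3K27me3 domain of Lhx2 began downstream of them, at 38342647. The Lhx2 bases are thus no example of H3K27me3 without H3K4me3. Dlx2 (chr2:71546705-71547004, - strand, 29 CG) had the highest summed H3K27Ac among genes with H3K4me3 near the start. That H3K27Ac was distal, with the strongest region 109.7 kb away, and the Dlx2 start itself carried no H3K27Ac region. Emx2 (chr19:59458440-59458739, + strand, 26 CG) was added after its H3K4me1 was seen to differ most with WT-ERG.
Pax2: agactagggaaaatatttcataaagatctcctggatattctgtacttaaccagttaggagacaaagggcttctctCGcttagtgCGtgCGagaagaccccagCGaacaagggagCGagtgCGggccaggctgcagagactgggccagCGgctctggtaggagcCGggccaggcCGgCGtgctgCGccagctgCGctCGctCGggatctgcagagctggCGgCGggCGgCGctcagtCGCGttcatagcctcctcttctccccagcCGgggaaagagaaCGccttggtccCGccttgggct
Lhx2: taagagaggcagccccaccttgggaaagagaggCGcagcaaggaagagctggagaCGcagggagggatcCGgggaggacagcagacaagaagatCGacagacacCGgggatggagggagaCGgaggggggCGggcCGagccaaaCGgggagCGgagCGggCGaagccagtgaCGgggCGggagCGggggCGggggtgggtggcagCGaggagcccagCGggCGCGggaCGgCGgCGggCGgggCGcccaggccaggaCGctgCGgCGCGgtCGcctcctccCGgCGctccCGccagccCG
Dlx2: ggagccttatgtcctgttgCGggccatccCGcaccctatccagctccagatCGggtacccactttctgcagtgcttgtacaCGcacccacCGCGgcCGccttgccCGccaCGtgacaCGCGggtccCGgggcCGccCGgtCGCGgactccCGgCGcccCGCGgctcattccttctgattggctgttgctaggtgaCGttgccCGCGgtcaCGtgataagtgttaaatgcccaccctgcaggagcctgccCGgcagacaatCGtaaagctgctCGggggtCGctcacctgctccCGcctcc
Emx2: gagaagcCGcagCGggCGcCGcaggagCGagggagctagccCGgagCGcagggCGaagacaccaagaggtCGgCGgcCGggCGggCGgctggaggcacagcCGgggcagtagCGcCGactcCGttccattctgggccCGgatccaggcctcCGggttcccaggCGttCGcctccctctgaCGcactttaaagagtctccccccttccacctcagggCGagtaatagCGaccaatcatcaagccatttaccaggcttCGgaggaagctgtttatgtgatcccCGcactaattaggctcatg

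H3K27me3 had by far the fewest reads of the 5 marks, with 971058, 980145 and 768125 in its regions; the other marks had between 10268618 and 22278560 per library. The P199L-ERG library had calls at 4080 of 14721 H3K27me3 regions, beside 7237 with empty vector and 11508 with WT-ERG. The labelled cell type was checked on H3K27Ac within 2000 bases of marker genes. It was present at 14 of 15 myeloid progenitor markers, 5 of 7 B cell, 4 of 7 erythroid, 1 of 7 T and NK cell and 1 of 7 endothelial markers. Over all genes the share was 63.3%, so the B cell and erythroid counts were near it. Summed H3K27Ac over the 15 myeloid markers was 84512, 84303 and 82199 normalized reads. Ratios to empty vector moved with GC content for P199L-ERG in H3K27Ac, H3K4me3 and H3K4me1, for WT-ERG in H3K4me1, and less for both ERG lines in H3K9Ac, where the medians in the 10% of regions lowest and highest in GC were 0.13 and -0.25 with WT-ERG and 0.25 and -0.35 with P199L-ERG. Between the same 2 groups of regions the WT-ERG medians went from -0.25 to 0.16 in H3K27Ac and from 0.098 to -0.14 in H3K27me3. The P199L-ERG medians in H3K27me3 went from 0.028 to -0.10. GC-adjusted counts and ratios are therefore given for the main comparisons.

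H3K27me3 was assigned to most of these genes, and its level in both ERG lines lay within 1.5-fold of empty vector at all but 3 of the 41 genes with 60 reads or more. Of the 50 genes, 43 had at least 1 H3K27me3 region, and none was assigned to Pax9, Sox2, Tbx20, Irx1, Irx2, Msx1 or Wt1. The 43 genes held 293 regions of 652 kb in all, from 0.173 to 28 kb long. A gene with any region had a median of 13.1 kb under H3K27me3, beside 2.75 kb over the 7427 genes with H3K27me3. Per kilobase the level was closer, with a median of 38.7 normalized reads beside 34.3. Thus the genes differed from others in the length covered more than in the level per length.

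Pax2, a factor of kidney and eye, had the highest sum, with 3247 normalized reads with empty vector, 3033 with WT-ERG and 3157 with P199L-ERG over 40 regions. Nkx2-5, a heart factor, had 2057, 1947 and 2066 over 11 regions. Lhx2, a LIM homeobox factor of forebrain and eye, had 1979, 1896 and 2056. These 3 genes differed by less than 10% between any of their libraries. Lhx1, which is needed for the head and kidney, had 1750, 1686 and 1719, and Tbx5, a factor of heart and forelimb, had 1399, 1301 and 1307. The lowest sums were at Otx2, with 12.3, 21.7 and 11.1, and at Gata6, with 9.68, 10.8 and 7.74, which lay 300.1 kb from its only region.

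**Figure D1:**
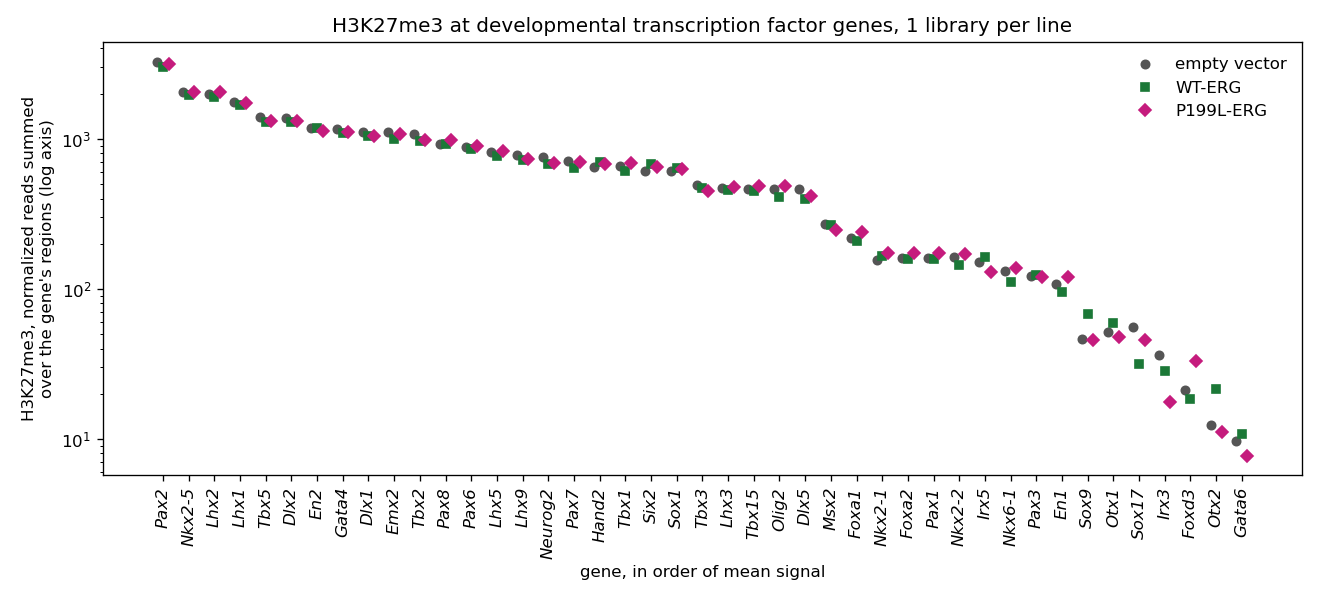
Summed H3K27me3 of the 43 genes with a region (horizontal axis, ordered by mean) in normalized reads on a log axis, with 1 point per line for empty vector, WT-ERG and P199L-ERG. The 3 points of a gene nearly coincide from Pax2, near 3146, down to about 100 and separate only at the genes of lowest signal.

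Single domains reached over whole genes. The longest, of 28 kb at chr17:26835132-26863128 (mm10), contained all of Nkx2-5 (26838664 to 26845009) and ranked 4 among the 14721 H3K27me3 regions by length. It held 1746, 1613 and 1791 normalized reads, was called in all 3 lines and overlapped no H3K4me3 or H3K27Ac region. A domain of 18.4 kb at chr11:85828639-85847053 contained all of Tbx2, a factor of heart and limb, with 1047, 931 and 935, and overlapped regions of H3K4me3 and H3K27Ac. Domains of 17.8 kb at Pax2, 17.5 kb at Tbx5, 16.1 kb at Pax6 and 14.6 kb at Emx2 held the start of the gene. The 11.6 kb domain at the paired forebrain genes Dlx1 and Dlx2 contained all of Dlx1. Of the 50 genes, 21 had their start inside an H3K27me3 region (42%), beside 10.4% of 17701 genes with a GENCODE start.

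Against empty vector the median log2 ratio of H3K27me3 was -0.079 with WT-ERG and -0.011 with P199L-ERG, beside -0.025 and -0.0029 over 6544 genes. After GC adjustment these medians were -0.0067 and 0.0049, beside -0.0076 and -0.0019 over all genes. Of the 41 genes with 60 reads over the 3 libraries, 0 lay past 1.5-fold higher and 1 past 1.5-fold lower with WT-ERG, where 4.11% and 3.61% of all genes did. With P199L-ERG 1 was higher and 1 lower (all genes 3.27% and 3.13%), and between P199L-ERG and WT-ERG the counts were 1 and 1 (all genes 2.23% and 3.07%). These shares are near those of all genes.

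The genes past 1.5-fold had few reads. Sox17, an endoderm and endothelial factor, had 55.4, 31.7 and 45.3 in its only region, 75.3 kb away, and a WT-ERG ratio of -0.76 (95% counting interval -1.43 to -0.20). Irx3, a factor of spinal cord and heart, had 36.1, 28.3 and 17.7 and a P199L-ERG ratio of -0.93 (95% counting interval -1.96 to -0.16). Foxd3, a neural crest factor, had 21.1, 18.3 and 33.2, with a P199L-ERG ratio of 0.59 (95% counting interval -0.17 to 1.49), which was 0.53 and inside 1.5-fold after GC adjustment. Only the interval of Foxd3 among these 3 held 0.

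The other genes with the largest H3K27me3 ratios stayed inside 1.5-fold. Sox9, a cartilage and testis factor, had 46.6, 68.3 and 45.3 in regions at least 402592 bases away. Otx1, a forebrain factor, had 51.9, 59.2 and 47.5, and Six2, which keeps kidney progenitors, had 608, 682 and 649. Nkx6-1, a pancreas factor, had 132, 112 and 138, whereas Nkx2-1, a lung and thyroid factor, had 155, 167 and 175. Irx5, a retina and heart factor, had 150.5, 162 and 129, and En1, of midbrain and limb, had 108, 95 and 119.

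The remaining genes ranged in mean H3K27me3 from 122 normalized reads at Pax3, a muscle and neural crest factor, to 1327 at Dlx2. All 5 Lhx genes had regions, with means from 468 to 1977. Among the 4 Irx genes only Irx3 and Irx5 had any, with means of 27.4 and 147. Pax1 and Foxa2 were assigned the same single region, which lay 6648 bases from Foxa2 and 674 kb from Pax1, so their values are identical. Tbx3 and Tbx5 shared 7 regions, and Dlx1 and Dlx2 shared 2.

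The starts of these genes carried H3K27me3 more often, and H3K4me3 less often, than those of all genes. With a region counted when its annotated centre lay within 2000 bases, H3K27me3 was found at 18 of 50 starts (36%), beside 14.4% of 17885 genes. H3K4me3 was found at 11 (22%, all genes 63.9%), H3K27Ac at 6 (12%, all genes 63.3%), H3K9Ac at 7 (14%, all genes 62%) and H3K4me1 at 22 (44%, all genes 66.6%). Both H3K27me3 and H3K4me3 stood at 7 starts (14%, all genes 7.85%): those of Pax2, Pax6, Tbx15, Lhx9, Irx3, Foxa1 and Neurog2. H3K27me3 without H3K4me3 stood at Pax7, Nkx2-1, Nkx2-2, Nkx6-1, Lhx2, Six2, Msx2, Hand2, En2, Emx2 and Olig2. H3K4me3 alone stood at Tbx2, Irx5, Dlx1 and Dlx2.

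The centre of a long domain can lie far from a start that the domain covers. The annotated distances also run to a start that differs from the GENCODE start at some genes. At Lhx2 the domain beginning at 38342647 was annotated 897 bases from the gene, but the GENCODE start, 38339281, lay outside it. Both points enter the moves between the 2 counts. When a region counted for coming within 2000 bases of the GENCODE start, H3K27me3 was found at 29 starts (58%), beside 16.3% of 17701 genes. H3K27me3 with H3K4me3 then numbered 11, H3K27me3 alone 18, H3K4me3 alone 1 and neither 20. Tbx2, Dlx1 and Dlx2 thus moved from H3K4me3 alone to both marks, which left Irx5 alone with H3K4me3 and no H3K27me3. Pax6, Tbx15 and Lhx9, named above with both marks, had no H3K4me3 by this count and moved to H3K27me3 alone. Lhx2 moved from H3K27me3 alone to both marks, and Nkx2-2 from H3K27me3 alone to neither. The 20 starts with neither included Sox1, Sox2, Sox9 and Sox17, Pax1, Pax3 and Pax9, Gata6, Irx1 and Irx2, Msx1 and Wt1. By calls of each line, this count of H3K27me3 starts was 24 with empty vector, 29 with WT-ERG and 21 with P199L-ERG. The shares over all genes were 12.9%, 15% and 10.1%. Both follow the order of the total calls of these libraries.

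**Figure D2:**
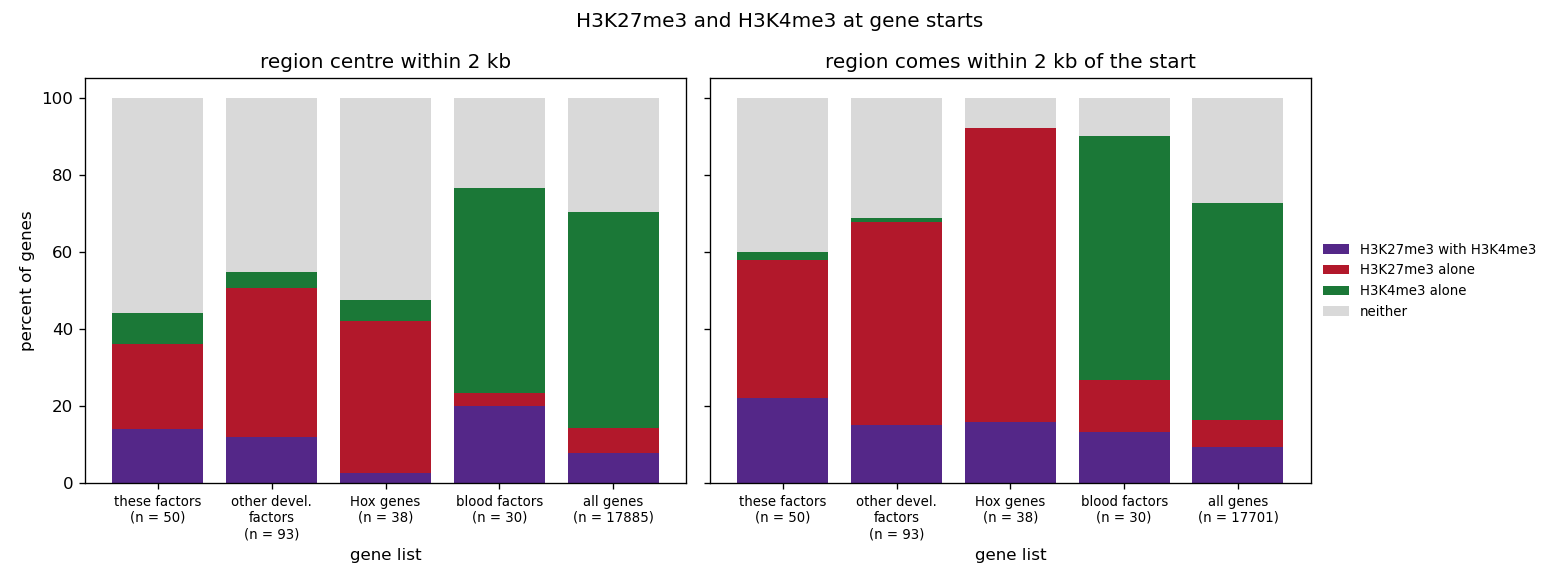
Share of genes (percent, stacked bars from 0 to 100) with H3K27me3 and H3K4me3, H3K27me3 alone, H3K4me3 alone or neither at the start, for the 50 factors, 3 other gene lists and all genes; left, region centre within 2000 bases of the gene; right, region coming within 2000 bases of the GENCODE start. H3K27me3 of either kind makes up 36% of the factors on the left and 58% on the right, while H3K4me3 alone makes up 56% and 56.3% of all genes.

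Other developmental factors were alike in H3K27me3. Of 93 further genes of this kind, 63 had H3K27me3 coming within 2000 bases of the start (67.7%), and of 38 Hox genes 35 had it (92.1%), beside 8 of 30 blood factors (26.7%). The highest H3K27me3 among the other developmental factors was at Tlx1 (mean 2595 normalized reads), Uncx (2241), Foxf1 (1852) and Lmx1b (1774). Among Hox genes it was at Hoxc4 (4157) and Hoxd13 (2472), followed by Hoxc9 and Hoxc10, which share 1 region (2423). Among blood factors it was at Runx1 (957), Fli1 (730.1), Ets1 (724) and Irf8 (678). The H3K27me3 regions of the 50 genes overlapped an H3K4me3 region in 10.9% and an H3K27Ac region in 3.07% of cases, beside 14.5% and 8.02% of all H3K27me3 regions. Of their H3K4me3 regions 21.7% overlapped H3K27me3, beside 5.38% of all.

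Most of the H3K4me1, H3K4me3 and acetylation assigned to these genes lay far from them. Within 5 kb lay 38.4% of their H3K27me3 signal, 26.8% of H3K4me3, 11.2% of H3K9Ac, 7.33% of H3K4me1 and 4.87% of H3K27Ac. Over all genes these shares were 30%, 68.4%, 56%, 14.2% and 46%. Regions over 50 kb away gave 89.8% of the H3K27Ac signal, beside 25.2% over all genes. In 70.1% of H3K27Ac and 57.2% of H3K4me3 signal the annotation named another gene that was nearer. Only for H3K27me3 was that share lower than over all genes, with 18.8% beside 40.9%. The sums of the other 4 marks thus rested mostly on regions beyond 5 kb.

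**Figure D3:**
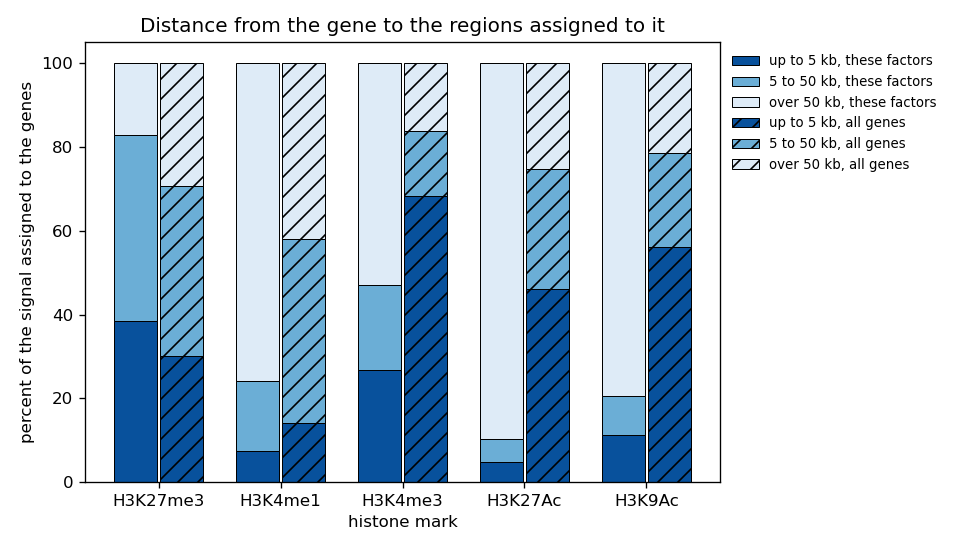
Share of the assigned signal (percent, stacked bars from 0 to 100) that lies up to 5 kb, 5 to 50 kb and over 50 kb from the gene, for each mark, with plain bars for the 50 factors and hatched bars for all genes. H3K27me3 is the mark whose bars are most alike, and for H3K27Ac the part over 50 kb is 89.8% for the factors and 25.2% for all genes.

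Next to the genes, H3K4me1 as deposited was higher with WT-ERG and lower with P199L-ERG than with empty vector, and after GC adjustment no gene lay past 1.5-fold lower with P199L-ERG. Regions within 5 kb with 60 reads or more were found for 22 of the 50 genes. With WT-ERG all 22 had a ratio above 0, beside 7652 of all 13462 genes with such regions, and their median was 0.63. Of the 22, 14 lay past 1.5-fold higher and 0 lower (all genes 16.7% and 5.13%). With P199L-ERG 21 of 22 had a ratio below 0, beside 8761 of the 13462 genes, and their median was -0.46. Of the 22, 9 lay past 1.5-fold lower and 0 higher (all genes 7.81% and 2.93%). Between P199L-ERG and WT-ERG 21 lay past 1.5-fold lower and 0 higher (all genes 22.4% and 2.76%). The 2 ratios to empty vector share its library. Over all genes with such regions the medians were 0.076, -0.13 and -0.15.

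Emx2, a factor of cortex and kidney, had 17 normalized reads with empty vector, 56.5 with WT-ERG and 12.1 with P199L-ERG within 5 kb, a WT-ERG ratio of 1.52 (95% counting interval 0.91 to 2.62). Gata4, a heart and endoderm factor, had 22, 62.3 and 12.1, with 1.34 (95% counting interval 0.76 to 2.29). Emx2 and Gata4 had 79 and 89 reads in the 3 libraries and reached the minimum of 60 only through WT-ERG. With WT-ERG at the level of empty vector both would have been left out. Both are among the genes counted above as past 1.5-fold higher, so that count is partly shaped by the minimum. Nkx2-5 had 80.8, 161 and 37.2, with ratios of 0.96 (95% counting interval 0.59 to 1.41) for WT-ERG and -1.04 (95% counting interval -1.70 to -0.55) for P199L-ERG, which were 0.34 and -0.41 after GC adjustment. In each of these 3 genes WT-ERG was the highest and P199L-ERG the lowest library.

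The genes with more reads had the same order of libraries. Dlx1 had 1099, 1799 and 965 and a WT-ERG ratio of 0.71 (95% counting interval 0.60 to 0.82). Lhx1 had 499, 800.3 and 377, Neurog2, a proneural factor, 575, 884 and 372, and Tbx2 431, 664 and 286. Tbx1, a factor of pharynx and heart outflow, had 387, 594 and 259, and Pax6, of eye and brain, had 293, 402 and 179.7. Pax2 had 475, 536 and 296, so its WT-ERG ratio of 0.17 (95% counting interval -0.013 to 0.36) held 0 while its P199L-ERG ratio was -0.67 (95% counting interval -0.89 to -0.47), or -0.20 after GC adjustment. Six2, with 34.9, 73.8 and 39.1, was the gene whose P199L-ERG value was above empty vector.

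**Figure D4:**
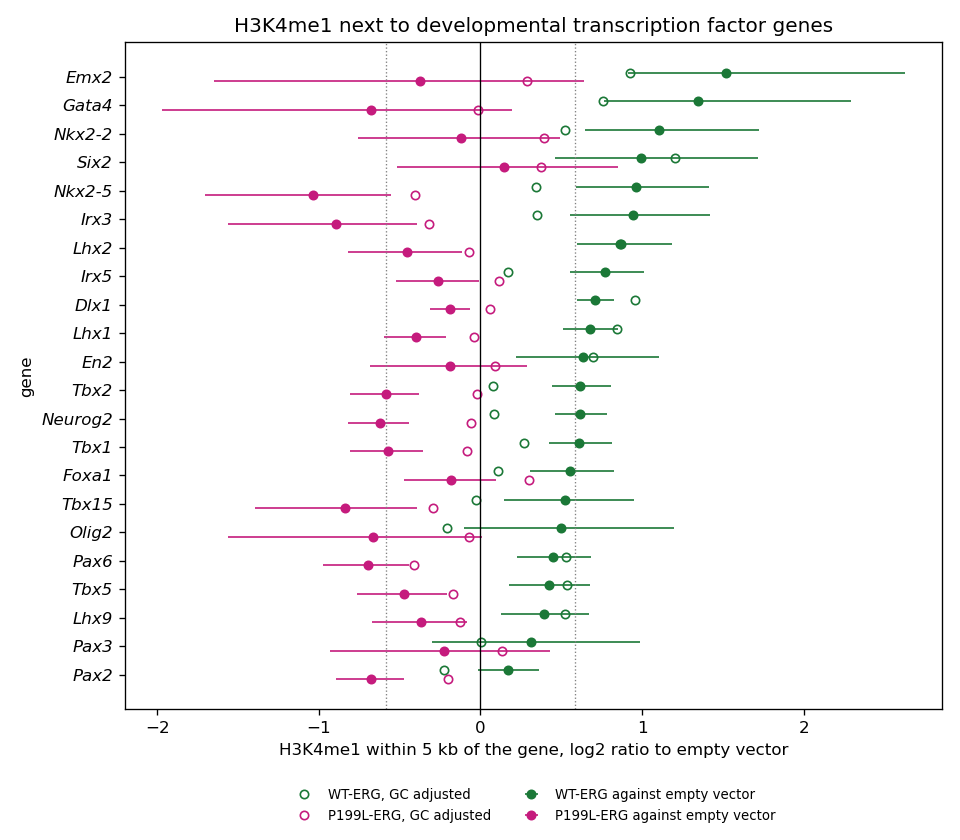
Log2 ratio of H3K4me1 within 5 kb to empty vector (horizontal axis) for the 22 genes with 60 reads or more, WT-ERG and P199L-ERG; filled points are deposited values with 95% counting intervals, open points GC-adjusted values, and dotted lines 1.5-fold. All 22 filled WT-ERG points lie above 0 and 21 of 22 filled P199L-ERG points below it, while the open P199L-ERG points lie on both sides.

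These ratios moved with GC content. The H3K4me1 regions within 5 kb of the 22 genes had a median GC content of 59.3%, beside 49.7% over all genes. In the 10% of all H3K4me1 regions with the highest GC content the median ratio was 0.32 with WT-ERG and -0.48 with P199L-ERG. In the 10% with the lowest it was 0.82 and 0.36, and in the fifth group of 10% it was -0.099 and 0.014, so the WT-ERG ratio was higher at both ends of the GC range. After GC adjustment 7 of 22 genes lay past 1.5-fold higher with WT-ERG (median 0.43, all genes 10.6%), 0 lay past 1.5-fold lower with P199L-ERG (median -0.051 beside -0.032 over all genes, of which 2.38% did), and 12 were lower with P199L-ERG than with WT-ERG (median -0.62, all genes 11.3%). The adjusted ratio was above 0 at 19 of 22 genes with WT-ERG and below 0 at 14 with P199L-ERG. Over all 13462 genes with such regions it was above 0 at 7209 with WT-ERG and below 0 at 7498 with P199L-ERG. The GC-adjusted WT-ERG ratio was 0.92 at Emx2, 0.76 at Gata4, 0.95 at Dlx1 and 0.85 at Lhx1, but 0.076 at Tbx2 and 0.087 at Neurog2.

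Genes outside the list with H3K27me3 near the start showed the same directions. Among 2307 such genes the H3K4me1 within 5 kb was past 1.5-fold higher with WT-ERG in 33.8% and past 1.5-fold lower with P199L-ERG in 24.4%, with medians of 0.36 and -0.40. Among 10995 genes without it these were 13.1% and 4.26%, with medians of 0.028 and -0.082. After GC adjustment the medians of the genes with H3K27me3 were 0.18 and -0.044. Of the 22 developmental factors 19 had H3K27me3 at the start.

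Over all assigned regions, mostly distal, H3K4me1 differed less. Of 45 genes with 60 reads, 6 lay past 1.5-fold higher and 0 lower with WT-ERG (all genes 10.2% and 2.98%), 2 higher and 2 lower with P199L-ERG (all genes 2.26% and 2.43%), and 1 higher and 9 lower with P199L-ERG than with WT-ERG (all genes 1.31% and 8.41%). The medians were 0.22, -0.11 and -0.25, beside 0.02, -0.065 and -0.074. After GC adjustment 4 were higher and 0 lower with WT-ERG (all genes 5.38% and 2.81%), 1 higher and 1 lower with P199L-ERG (all genes 1.35% and 1.27%), and 1 higher and 2 lower between the ERG lines (all genes 1.56% and 4.25%). Regions were assigned to 48 of the 50 genes, all but Msx1 and Wt1.

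The highest sums lay mostly beyond 5 kb of the gene. Dlx2 had 9346, 10878 and 9165, none of it within 5 kb. Sox9 had 10481, 8063 and 8192 over 53 regions, of which the nearest was 174921 bases away, and ratios of -0.38 (95% counting interval -0.42 to -0.33) and -0.36 (95% counting interval -0.40 to -0.31). Pax8, a thyroid and kidney factor, had 7601, 7666 and 7924. Irx3 had 7289, 6433 and 7071, of which 1.22% lay within 5 kb, and Tbx2 had 5866, 5160.3 and 4859.8.

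Six2 and Nkx2-1 were past 1.5-fold higher in both ERG lines as deposited. Six2 had 1370.2, 2276 and 2092, with ratios of 0.73 (95% counting interval 0.63 to 0.83) and 0.61 (95% counting interval 0.51 to 0.71), and Nkx2-1 had 143, 257 and 246. After GC adjustment the ratios were 0.75 and 0.60 at Six2 and 0.43 and 0.51 at Nkx2-1, the latter inside 1.5-fold. Pax1, a factor of the vertebral column, had 16, 53 and 17.7 in 1 region 379 kb away, a WT-ERG ratio of 1.501 (95% counting interval 0.88 to 2.65). Of its 81 reads 46 came from WT-ERG, and with WT-ERG at the level of empty vector it would have missed the minimum of 60. The lowest P199L-ERG ratios were at Irx2, with 40.9, 40.4 and 16.8, Tbx15, a factor of limb and skin, with 169, 199.5 and 111, and Olig2, of oligodendrocytes and motor neurons, with 535, 494 and 371. The P199L-ERG ratio of Tbx15 was -0.59 as deposited and -0.26 after GC adjustment. Sox2, a neural and pluripotency factor, had 21, 12.7 and 31.7 in 1 region 619 kb away, and Foxd3 had 64.9, 46.1 and 49.4. The counting intervals of Sox2 held 0 in both ratios.

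H3K4me3 was low at most of these genes. It was assigned to 36, with a median of 131 normalized reads per kilobase beside 379 over 15571 genes. Irx5 was an exception among them, with 5565 normalized reads with empty vector, 5538 with WT-ERG and 3642 with P199L-ERG, of which 94.4% came from a region centred 1397 bases from the gene. Its P199L-ERG ratio was -0.61 (95% counting interval -0.67 to -0.55) and, after GC adjustment, -0.20. Irx5 also had H3K27Ac and H3K9Ac at its start. So did Tbx2 and Dlx1, whose starts were without H3K27me3 by annotated distance but not by the reach of the regions.

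The other high sums came mostly from regions beyond 5 kb. Lhx3, a pituitary and motor neuron factor, had 4454, 4719.7 and 3058, of which 59.1% lay 66.5 kb away in a region also assigned to Nacc2. Dlx2 had 3478, 3633 and 3142, with 4.35% within 5 kb. Pax8 had 2969, 2918 and 3470.2, mainly from a region 87.6 kb away and nearer to Psd4, and Gata6 had 3034, 2978 and 2599.6, of which 94.4% lay next to the start of Mib1, 326 kb away.

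Of 34 genes with 60 reads, 2 lay past 1.5-fold higher and 1 lower with WT-ERG (all genes 2.03% and 1.19%), 2 higher and 2 lower with P199L-ERG (all genes 4.18% and 4.83%), and 0 higher and 3 lower with P199L-ERG than with WT-ERG (all genes 4.05% and 7.36%). Between the ERG lines the counts were 2 higher and 0 lower with libraries scaled to total reads, and 0 and 0 after GC adjustment. The medians against empty vector were 0.0076 and -0.14, beside -0.021 and -0.23. Six2 had 52, 105 and 109, with ratios of 0.96 (95% counting interval 0.52 to 1.53) and 1.01 (95% counting interval 0.58 to 1.58), and Otx2, a forebrain and eye factor, had 32.2, 52.2 and 64.5. Both were past 1.5-fold higher in both ERG lines as deposited. After GC adjustment the ratios were 0.89 and 0.85 at Six2 and 0.53 and 0.40 at Otx2, the latter inside 1.5-fold. Nkx2-2, a factor of ventral spinal cord and pancreas, had 53.1, 45.2 and 32.2 and Foxa2 89.5, 58.2 and 82.5. Tbx3, of limb and breast, had 155, 197 and 151, Emx2 182, 171 and 223 and Foxd3 30.2, 24.1 and 29.4.

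Within 5 kb, 6 of 17 genes with 60 reads had H3K4me3 past 1.5-fold lower with P199L-ERG than with empty vector (all genes 8.94%), and 8 of 17 were lower than with WT-ERG (all genes 14.1%). Tbx2 had 562, 601 and 313, a ratio of -0.84 (95% counting interval -1.05 to -0.64), and Tbx5 had 453, 424 and 279.8. The adjusted ratios of these genes were -0.29 and -0.27, and after GC adjustment 2 and 1 of 17 genes lay past 1.5-fold lower in these comparisons, Pax6 and En2 in the former and En2 in the latter (all genes 1.24% and 1.28%). In the 10% of H3K4me3 regions highest in GC content the median P199L-ERG ratio was -0.46.

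Acetylation was sparse next to the genes. Over all genes, H3K27Ac within 5 kb reached 60 reads at 11404 of 17885. Of the 50 genes 6 did so, Tbx1, Tbx2, Tbx5, Lhx1, Irx5 and Dlx1. All 6 lay past 1.5-fold lower with P199L-ERG, where 67.6% of all genes did, and 2 of them after GC adjustment, where 10.4% of all genes did. Lhx1 had 189.6, 144 and 55.5, with a ratio of -1.73 (95% counting interval -2.23 to -1.33) and an adjusted one of -1.41. Tbx5 had 56.3, 49.4 and 16.3, with -1.66 (95% counting interval -2.68 to -0.97) and -1.01 adjusted. Irx5 had by far the most, with 1687, 1190.1 and 614, and its P199L-ERG ratio of -1.46 (95% counting interval -1.60 to -1.32) became -0.23 after adjustment. In the 10% of H3K27Ac regions highest in GC content the median P199L-ERG ratio was -1.08, and in the lowest 10% it was 1.41.

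The summed acetylation was highest at Pax8, Dlx2 and Lhx3, from distal regions. Pax8 had 4574, 5349.7 and 6377 normalized reads of H3K27Ac and 2316, 2601 and 2685 of H3K9Ac, with the strongest regions 90.8 and 90 kb away and nearer to Psd4. Dlx2 had 3928, 4737 and 5465 of H3K27Ac and 2159.8, 2553 and 2455 of H3K9Ac. Lhx3 had 3639, 3312 and 1826 of H3K27Ac and 2078, 1554 and 1601 of H3K9Ac. Sox9 had 4873, 3217 and 3346 of H3K27Ac, with ratios of -0.60 (95% counting interval -0.67 to -0.53) and -0.54 (95% counting interval -0.61 to -0.48), and Gata6 1883, 1451 and 1454 of H3K9Ac. Sox9 was lower in both ERG lines in H3K4me1, H3K27Ac and H3K9Ac, in regions no nearer than 174921 bases.

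Of 29 genes with 60 reads of H3K27Ac, 4 lay past 1.5-fold higher and 1 lower with WT-ERG (all genes 4.11% and 3.65%), and 10 higher and 3 lower with P199L-ERG (all genes 9.24% and 39.4%). After GC adjustment these were 5, 1, 6 and 0 (all genes 3.98%, 2.94%, 6.33% and 7.1%). Lhx5, a forebrain factor, had 270, 715 and 350.3 at least 234841 bases away, with a WT-ERG ratio of 1.40 (95% counting interval 1.19 to 1.62), adjusted 1.22. Msx2, a factor of skull and limb, had 14.9, 47.3 and 53.6, past 1.5-fold higher in both ERG lines. With both ERG lines at the level of empty vector, Msx2 would have missed the minimum of 60 reads. The counts of higher genes in both ERG lines include Msx2 and are thus partly shaped by that minimum. For H3K9Ac, of 26 genes 2 were higher and 1 lower with WT-ERG (all genes 2.41% and 2.23%), and 1 was higher and 0 lower with P199L-ERG (all genes 1.89% and 3.57%), and after GC adjustment 1, 1, 1 and 1 (all genes 2.23%, 1.61%, 1.63% and 1.61%). Sox17 was the gene past 1.5-fold higher in both, with 43.6, 73.3 and 76.4 in 1 region 279 kb away, nearer to Mrpl15.

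Read across the 5 marks, the genes fell into few kinds of pattern. Wt1, of kidney and gonad, and Msx1, of tooth and limb, had no region of any mark. Pax9, Sox2, Tbx20, Irx1 and Irx2 had H3K4me1 as their only mark, with at most 3 regions each, and their summed reads over the 3 libraries ran from 22 at Irx1 to 102 at Pax9. Gata4, Dlx5, Otx1 and Pax1 had H3K27me3 and H3K4me1 only, Pax3, Pax6, Pax7, Tbx15 and Nkx2-2 had H3K4me3 besides, and En1, Msx2 and Sox1 had H3K27Ac besides. The remaining genes had at least 4 marks among their assigned regions. At the starts themselves Neurog2 carried all 5 marks by annotated distance. Irx3 carried all but H3K9Ac, Lhx9 and Foxa1 all but H3K27Ac, and Irx5, Tbx2 and Dlx1 all but H3K27me3. By the reach of the regions Neurog2, Tbx1, Tbx2, Tbx5, Lhx1 and Dlx1 carried all 5 marks. Neurog2 had 689.7, 788 and 477 of H3K4me3 and 575, 501 and 526 of H3K27me3 within 5 kb. As deposited, WT-ERG was the highest library in H3K4me3 and the lowest in H3K27me3. After GC adjustment its WT-ERG and P199L-ERG ratios were 0.046 and 0.018 in H3K4me3. In H3K27me3 they were -0.099 and -0.108, so WT-ERG was no longer the lowest.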

How the data were processed

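ChIP-seq of 5 histone marks in 3 ER-Hoxb8 lines gave 15 libraries, 1 per mark and line; a pooled IgG sample was not used here. Per the labels and the methods of the study, the authors trimmed adapters with Cutadapt, kept reads with 1 place in mm10 (Bowtie), and called peaks (MACS2). They joined the peaks of each mark into a single set of regions and assigned genes with GREAT, whose distances run from the centre of a region. The start used for these distances differed from the GENCODE start at some genes, and values within 5 kb rest on the annotated distances. The deposited tables hold, per region and library, the authors' read count, a normalized signal that equals the count times a constant per library (its basis is not given in the sources used here), and a call of 0 or 1.

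The 50 genes and the other gene lists were chosen with earlier results of these data known, so no list is independent evidence. Signal was summed per gene over the regions naming it. Ratios are log2 ratios of normalized reads after adding 10% of the median over regions and libraries (2.67 for H3K27me3, 4.29 for H3K4me1, 4.27 for H3K4me3, 2.18 for H3K27Ac and 3.3 for H3K9Ac), which understates changes of low genes. Counts past 1.5-fold were taken over genes with 60 reads in the 3 libraries and set beside all genes. With 1 library per group no test was made. GC adjustment centred each library within 20 groups of GC content by 10 groups of mean signal, with GC content read from GRCm38, whose 21 chromosomes matched the tables. The ratio and GC steps were tested on simulated data. Named values follow a rule: the 5 highest genes and the 3 largest increases and decreases of each ERG line for H3K27me3, H3K4me1 and H3K4me3, and the 4 highest for H3K27Ac and H3K9Ac; genes named besides were chosen after their values were seen. Alternatives were total-read scaling, 3 times the pseudocount, no minimum of reads, regions within 5000 bases, GC adjustment, other definitions of a promoter and, added after seeing the data, the nearest gene only. Python 3.11.15, numpy 2.4.6, pandas 2.3.3, scipy 1.17.1 and matplotlib 3.10.9 were used.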

Additional observations from a re-analysis of the deposited data

Results flagged for a closer look

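No difference between lines was tested, since each mark and line had 1 library. The genes given here lay past 1.5-fold on opposite sides of empty vector in the 2 ERG lines, each with a counting interval clear of 0 and at least 60 reads. H3K4me1 within 5 kb did so at Nkx2-5, with 0.96 for WT-ERG and -1.04 for P199L-ERG on the log2 scale. At Irx3 the ratios were 0.94 and -0.89, at Neurog2 0.62 and -0.62, and at Tbx2 0.62 and -0.59. GC-adjusted values were 0.34 and -0.41 at Nkx2-5, 0.35 and -0.32 at Irx3, 0.087 and -0.061 at Neurog2, and 0.076 and -0.024 at Tbx2, so none of the 4 stayed past 1.5-fold on both sides. The regions next to these 4 genes had GC contents from 60.3% to 65.2%. Summed H3K27Ac did so at Tbx1, with 0.73 for WT-ERG and -1.48 for P199L-ERG, from 95 reads in 2 regions. The values were 33.3, 56.6 and 10.5 normalized reads, and the adjusted ratios 0.49 and -0.22.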

How the results depend on the processing

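Counts of genes past 1.5-fold were small, so a move of 1 gene often exceeded 1.5 times. The cause of these moves was not tested beyond what each setting changes. H3K27me3 counts stayed at 0 to 2 genes under every setting tried. Next to the genes, the WT-ERG difference in H3K4me1 was smaller after GC adjustment, and of the P199L-ERG difference from empty vector 0 of 22 genes and a median of -0.051 were left. Limits are that 1 library stood for each mark and line, that counting intervals leave out variation between cultures, that H3K27me3 had the fewest reads and that 1 region can count for a pair of genes. With libraries scaled to their total reads, 11 of 26 counts moved by over 1.5 times, to these values. For WT-ERG against empty vector the counts became H3K27me3 1 higher, H3K4me3 0 lower, H3K27Ac 0 lower, H3K9Ac 0 lower. For P199L-ERG against empty vector the counts became H3K4me1 1 lower, H3K4me3 0 lower, H3K27Ac 17 higher, H3K9Ac 2 higher. P199L-ERG against WT-ERG gave H3K27me3 2 lower, H3K4me3 2 higher and 0 lower. With 3 times the pseudocount, 7 of 26 counts moved by over 1.5 times, to these values. For WT-ERG against empty vector the counts became H3K4me3 1 higher and 0 lower, H3K9Ac 1 higher. For P199L-ERG against empty vector the counts became H3K27me3 0 higher, H3K4me1 1 lower, H3K4me3 1 lower. P199L-ERG against WT-ERG gave H3K27me3 0 lower. Without the minimum of 60 reads, 10 of 26 counts moved by over 1.5 times, to these values. For WT-ERG against empty vector the counts became H3K27me3 1 higher, H3K4me1 2 lower, H3K4me3 2 lower, H3K27Ac 2 lower, H3K9Ac 4 higher and 2 lower. For P199L-ERG against empty vector the counts became H3K4me1 4 lower, H3K9Ac 1 lower. P199L-ERG against WT-ERG gave H3K27me3 2 lower, H3K4me1 2 higher. With regions within 5000 bases only, 21 of 26 counts moved by over 1.5 times, to these values. For WT-ERG against empty vector the counts became H3K27me3 1 higher and 0 lower, H3K4me1 14 higher, H3K4me3 1 higher, H3K27Ac 0 higher and 0 lower, H3K9Ac 0 higher and 2 lower. For P199L-ERG against empty vector the counts became H3K27me3 0 lower, H3K4me1 0 higher and 9 lower, H3K4me3 1 higher and 6 lower, H3K27Ac 0 higher and 6 lower, H3K9Ac 0 higher and 1 lower. P199L-ERG against WT-ERG gave H3K27me3 0 lower, H3K4me1 0 higher and 21 lower, H3K4me3 8 lower. After GC adjustment, 13 of 26 counts moved by over 1.5 times, to these values. For WT-ERG against empty vector the counts became H3K4me3 1 higher, H3K9Ac 1 higher. For P199L-ERG against empty vector the counts became H3K27me3 0 higher, H3K4me1 1 higher and 1 lower, H3K4me3 1 higher and 1 lower, H3K27Ac 6 higher and 0 lower, H3K9Ac 1 lower. P199L-ERG against WT-ERG gave H3K27me3 0 lower, H3K4me1 2 lower, H3K4me3 0 lower. With each region given only to the nearest gene it names, chosen after seeing the data, 17 of 26 counts moved by over 1.5 times, to these values. For WT-ERG against empty vector the counts became H3K4me1 12 higher and 1 lower, H3K4me3 0 lower, H3K27Ac 2 higher and 0 lower, H3K9Ac 0 higher and 2 lower. For P199L-ERG against empty vector the counts became H3K4me1 1 higher and 6 lower, H3K4me3 6 lower, H3K27Ac 2 higher, H3K9Ac 0 higher and 1 lower. P199L-ERG against WT-ERG gave H3K4me1 0 higher and 15 lower, H3K4me3 1 higher and 7 lower. Promoters taken as 5000 bases gave 16 starts with both marks, 2 with H3K4me3 alone and 16 with neither, in place of 7, 4 and 28. Regions called in all 3 lines gave 4 with both and 5 with H3K27me3 alone. Regions coming within 2000 bases of the GENCODE start, chosen after seeing the data, gave 11, 18 and 1 for both marks, H3K27me3 alone and H3K4me3 alone.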

Other observations

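Other gene lists were read for H3K4me1 within 5 kb, chosen after the values of the 50 genes were seen. Counts are of genes with 60 reads that lay past 1.5-fold of empty vector. Over all genes 16.7% were higher and 5.13% lower with WT-ERG, and 2.93% higher and 7.81% lower with P199L-ERG. After GC adjustment these shares were 10.6%, 5.54%, 2.1% and 2.38%. Of 47 other developmental factors, 30 were higher and 0 lower with WT-ERG, and 1 higher and 15 lower with P199L-ERG, with medians of 0.69 and -0.48. After GC adjustment the other developmental factors counted 19 higher and 1 lower with WT-ERG, and 4 higher and 1 lower with P199L-ERG, with medians of 0.50 and -0.041. Of 22 Hox genes, 8 were higher and 2 lower with WT-ERG, and 0 higher and 9 lower with P199L-ERG, with medians of 0.44 and -0.52. After GC adjustment the Hox genes counted 7 higher and 1 lower with WT-ERG, and 1 higher and 2 lower with P199L-ERG, with medians of 0.35 and -0.22. Of 25 blood factors, 4 were higher and 0 lower with WT-ERG, and 0 higher and 6 lower with P199L-ERG, with medians of 0.14 and -0.39. After GC adjustment the blood factors counted 3 higher and 2 lower with WT-ERG, and 0 higher and 1 lower with P199L-ERG, with medians of 0.24 and -0.19. The share of blood factors higher with WT-ERG, 16%, was near that of all genes. The share lower with P199L-ERG was 24% beside 7.81%, and 4% beside 2.38% after GC adjustment. P199L-ERG was also set against WT-ERG, with GC adjustment. Past 1.5-fold lower were 44.7% of other developmental factors, 59.1% of Hox genes and 32% of blood factors, beside 11.3% of all genes.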
